A study of Mus musculus with 6 samples.

Results

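The genes described here lie on mouse chromosome 17 around Nkx2-5, the locus that carries Cre recombinase in the mutant hearts of this series. Members are the table entries that the authors tested and whose locus in the mm10 build overlaps chromosome 17 from 21838665 to 31841565, which is Nkx2-5 with 5 Mb on each side. Cdkn1a and symbols that start with Cldn, Rpl, Rps, Mrp, Nduf, Kcn or Mir were left out. This gave 195 members of 15387 tested entries, with 129 at lower coordinates than Nkx2-5 and 65 at higher coordinates. The window holds 258 entries in all, of which 50 were not tested by the authors (none above 0.0860 FPKM) and 13 were left out by symbol. Those not tested include vomeronasal receptors, trefoil factors and serine proteases such as Vmn2r111, Tff2 and Prss33.

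RNA was taken from 6 single embryonic hearts at E10.5, all on a C57BL/6 background. The 3 control hearts were Nkx2-5+/+,Casz1f/+ and the 3 mutant hearts were Nkx2-5Cre/+,Casz1f/f, so every heart carried at least 1 floxed Casz1 allele and only the mutants carried Cre. Cre was placed at 1 Nkx2-5 allele and is active where Nkx2-5 is transcribed. Some heart cells may therefore keep Casz1, and which ones was not measured. The labels do not say how Cre was placed in the locus or how much of Nkx2-5 the allele keeps, and the 2 genotype differences, at Casz1 and at Nkx2-5, cannot be told apart. The authors' deposited table gives 1 FPKM value per genotype (fragments scaled by transcript length and by library size), pooled over the 3 hearts. The spread between hearts and the depth of each library are therefore unknown here. All FPKM values, fold changes and p and q values below are those of the authors' deposited table. The standard error (SE) beside a log2 fold change was obtained by dividing its size by that of the deposited test statistic. Cardiac muscle markers were abundant in both genotypes, and the 10 markers Tnnt2, Tnni3, Tnni1, Myl7, Myl2, Myl3, Actn2, Ryr2, Nppa and Ttn summed to 19324 FPKM in control hearts and 18828 FPKM in mutants. Of these, 8 were lower in the mutants and 2 higher, with Myl7 at 5080 FPKM in control hearts and 7496 FPKM in mutants. The near-equal sums therefore rest largely on Myl7 and do not show equal muscle content.

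Nkx2-5 encodes a homeodomain transcription factor that is switched on in cardiac progenitors and stays on in heart muscle. It acts with GATA4 and T-box factors on genes of the chambers and the conduction system, and loss of a single copy causes septal and conduction defects in mice and people. Alleles with Cre at this locus are widely used to recombine floxed genes in the early heart. The surrounding segment is gene-dense and mixed in function: a zinc finger gene cluster and a serine protease cluster lie on the low-coordinate side, and genes for signalling kinases, splicing factors and metabolic enzymes lie on both sides.

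The start of Nkx2-5 and the starts of the nearest gene on each side are shown first, because they are the start sites at and next to the locus that carries Cre in the mutants. Each runs from 250 bases before to 50 bases after the RefSeq start in GRCm38.p6, read on the strand of the gene. Nkx2-5 is on the minus strand at chr17:26841516-26841815, Bnip1 on the plus strand at chr17:26780829-26781128, and Kifc5b on the plus strand at chr17:26916841-26917140. Capitals mark matches to TNAAGTG, the core of the NKX2-5 binding element, on either strand.
Nkx2-5: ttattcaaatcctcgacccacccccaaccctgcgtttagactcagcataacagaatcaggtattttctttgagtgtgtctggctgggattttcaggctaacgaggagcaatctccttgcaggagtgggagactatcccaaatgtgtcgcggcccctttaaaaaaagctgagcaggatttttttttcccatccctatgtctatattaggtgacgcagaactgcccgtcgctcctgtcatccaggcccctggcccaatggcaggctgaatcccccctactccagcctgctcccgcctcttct
Bnip1: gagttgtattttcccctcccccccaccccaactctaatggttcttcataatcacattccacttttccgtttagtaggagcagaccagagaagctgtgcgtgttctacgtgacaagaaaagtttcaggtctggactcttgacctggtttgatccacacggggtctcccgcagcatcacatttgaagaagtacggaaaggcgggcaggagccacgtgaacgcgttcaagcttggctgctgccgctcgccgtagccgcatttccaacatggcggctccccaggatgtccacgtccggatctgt
Kifc5b: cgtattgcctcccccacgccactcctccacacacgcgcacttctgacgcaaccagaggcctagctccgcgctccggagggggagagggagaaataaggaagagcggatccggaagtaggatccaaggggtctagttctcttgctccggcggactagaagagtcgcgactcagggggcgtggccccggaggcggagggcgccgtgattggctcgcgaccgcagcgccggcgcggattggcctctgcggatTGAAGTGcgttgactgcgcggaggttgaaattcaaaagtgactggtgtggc
The Kifc5b window holds 1 match, at bases 250 to 256 of the window, and the letters were not found in the other 2 windows. The same 7 letters occur in 11.5% of all 32851 RefSeq promoter windows of this length and in 10.6% of the 198 windows of the 153 members that matched by symbol. The letters AGATAA, the core of a GATA element, searched on both strands, were found in none of the 3 windows printed, in 6.06% of the member windows and in 11.2% of all windows. GC content was 51.7% for Nkx2-5, 54.0% for Bnip1 and 63.7% for Kifc5b.

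Nkx2-5 had a lower pooled value in the mutants and was not called, with a q far above 0.05. In the authors' deposited table Nkx2-5 (chromosome 17, 26838665 to 26841565) stood at 143.0 FPKM in control hearts and 82.9 FPKM in mutants, a mutant to control ratio of 0.579 with a 95% interval from 0.388 to 0.865. The log2 fold change was -0.79 (SE 0.295), with an unadjusted p of 0.00755 from Cuffdiff and q = 0.536. By FPKM it ranked 9 among the 195 members in control hearts and 16 in mutant hearts. Of 12224 tested entries with at least 1 FPKM in either genotype, 135 (1.10%) had a lower log2 fold change. In the same set 121 had a smaller unadjusted p (Cuffdiff). Only 12150 of the 12224 had a finite fold, and the others were not counted as lower even where the mutant value was 0. The value covers the whole gene model and both alleles. Of the 10 cardiac muscle markers 8 were also lower and 2 were higher (all tested entries 54.6% lower), none was called, and their median log2 fold change was -0.21. In these whole hearts fewer cells of a type and less RNA per cell cannot be told apart, and the part of cell composition in the Nkx2-5 value was not tested.

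The genes next to Nkx2-5 had smaller measured differences than Nkx2-5 itself. Bnip1, a SNARE protein of the endoplasmic reticulum, lies 46.1 kb away and read 30.8 FPKM in control hearts and 30.4 FPKM in mutants per the authors' deposited table (log2 -0.02, SE 0.298, 95% interval -0.61 to 0.56). Kifc5b, a kinesin of the C-terminal motor family, lies 75.5 kb away on the other side and read 10.3 and 8.65 FPKM (log2 -0.26, SE 0.301, 95% interval -0.84 to 0.33). Bnip1 stood near its control level, Kifc5b had the largest log2 difference of the 15 other members within 0.5 Mb, and both intervals overlapped that of Nkx2-5, so a difference between Nkx2-5 and either neighbour is not shown by these intervals. The intervals also leave room for real changes: the mutant to control ratio of Bnip1 could lie between 0.657 and 1.48.

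Further out on the low-coordinate side, Crebrf, a regulator of CREB3 family factors, read 1.17 FPKM in control hearts and 1.05 FPKM in mutants per the authors' deposited table (log2 -0.16). Atp6v0e, a subunit of the proton-pumping V-ATPase, read 86.6 and 81.1 FPKM (log2 -0.10), and Ergic1, a cargo protein between endoplasmic reticulum and Golgi, read 64.6 and 57.7 FPKM (log2 -0.16). Dusp1, a stress-induced MAP kinase phosphatase, read 12.7 and 12.6 FPKM (log2 -0.02). None of these 4 genes differed by more than 1 SE. The stress-responsive Dusp1 was among the closest to equal.

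On the high-coordinate side, Phf1, an accessory protein of Polycomb complex PRC2, read 8.87 FPKM in control hearts and 7.78 FPKM in mutants per the authors' deposited table (log2 -0.19). Cuta read 97.6 and 98.5 FPKM (log2 0.01), and Zbtb9, a BTB zinc finger gene, read 5.71 and 5.56 FPKM (log2 -0.04). Bak1, a pro-apoptotic member of the BCL2 family, read 32.7 and 28.5 FPKM (log2 -0.20), and Ggnbp1, which shares its locus, read 6.71 and 6.08 FPKM (log2 -0.14, SE 0.916). Uqcc2, an assembly factor of respiratory complex III, is the most highly expressed gene within 0.5 Mb and read 208 and 226 FPKM (log2 0.12).

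Over the 15 other members within 0.5 Mb of Nkx2-5, 12 were lower and 3 were higher (Neurl1b, Cuta and Uqcc2), with a median log2 fold change of -0.10. Their log2 fold changes lay between -0.26 and 0.25, below the median SE of 0.302, and 0 had an unadjusted p under 0.05 (Cuffdiff). Across all tested entries 54.6% were lower in the mutants, with a median of -0.02. The count is a description of 15 neighbouring genes in 2 pooled values, and genes are not replicates.

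**Figure D1:**
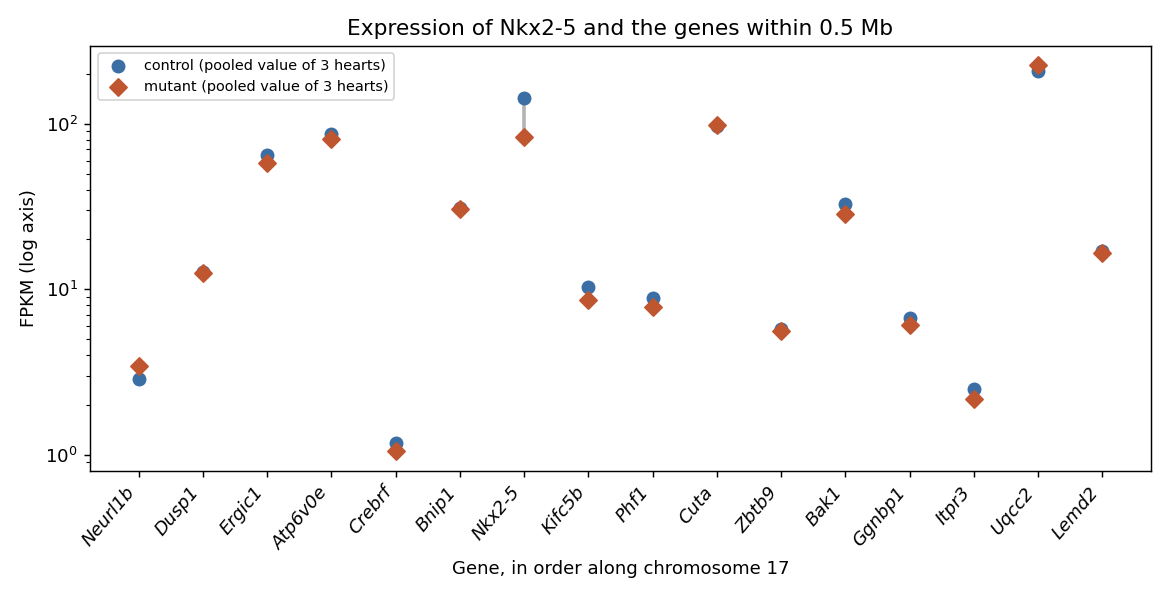
FPKM on a log axis for Nkx2-5 and the 15 members within 0.5 Mb, in order along chromosome 17, with circles for the pooled control value and diamonds for the pooled mutant value. The pair of symbols is widest apart for Nkx2-5 (143.0 and 82.9 FPKM) and nearly coincides for Bnip1 and Cuta.

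The authors' deposited table called 0 of the 195 members (q under 0.05), against 0.422% of all tested entries. An unadjusted p under 0.05 was found for 7 of 195 members by Cuffdiff, which is 3.59%, against 3.17% of all tested entries. Of these, 3 were higher in the mutants (background 1.99%) and 4 were lower (background 1.18%). For the 195 members these shares are near the background, so the count of differing genes does not set the members apart. The membership rule left out the claudins Cldn6 and Cldn9, which were higher in the mutants and called (Cuffdiff q = 0.00858 and 0.0196). The 0 called therefore holds for the members and not for every gene of the window. The median log2 fold change of the members was -0.03, with quartiles of -0.14 and 0.09, against -0.02 with quartiles of -0.13 and 0.08 over all tested entries. Over the 554 tested entries on the rest of chromosome 17 the median was -0.01, and 2.17% had an unadjusted p under 0.05. A window chosen in the same way around Casz1 on chromosome 4 held 84 tested entries, 1 of them (1.19%) called, with a median of -0.07.

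**Figure D2:**
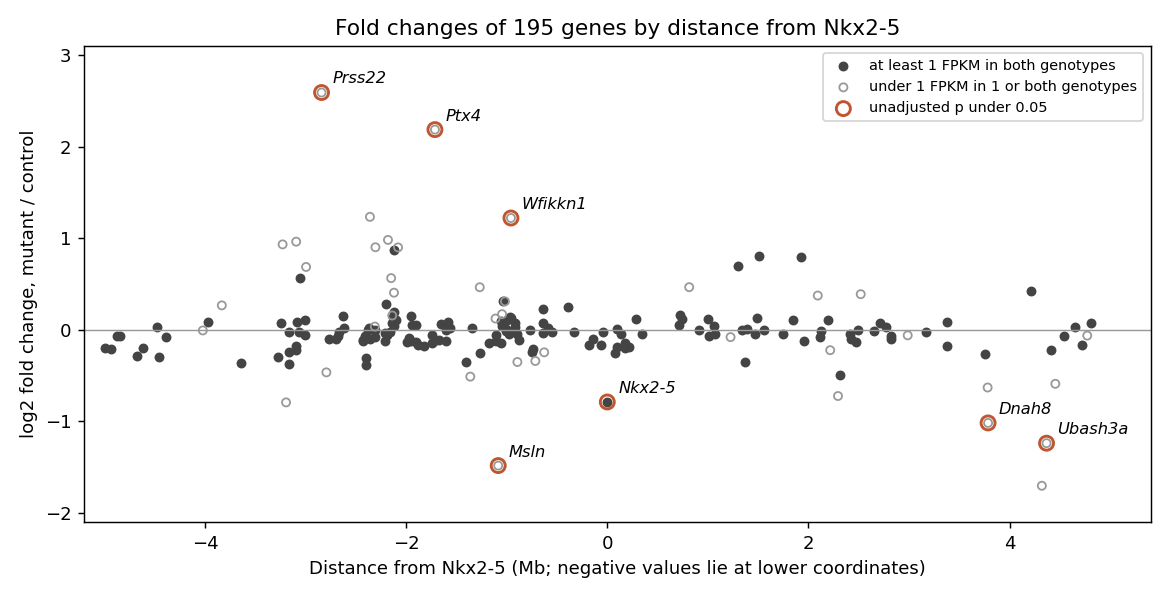
Log2 fold change (mutant over control) of each of the 195 members against distance from Nkx2-5 in Mb, with filled points for genes of at least 1 FPKM in both genotypes and rings around the 7 genes with an unadjusted p under 0.05. Nkx2-5 sits at -0.79 as the lowest filled point, and the other ringed genes are scattered from 0.958 to 4.37 Mb away.

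Among genes of measurable level, Nkx2-5 had the lowest log2 fold change of the segment. At least 1 FPKM in both genotypes was found for 155 members, and 149 of the 154 others differed by less than 0.5 on the log2 scale. Among these, the genes whose log2 fold change came nearest to that of Nkx2-5, over 2 genotype values only, were Cpne5, Eci1 and Tnfrsf12a. Cpne5, a calcium-binding copine 2.31 Mb away, read 7.42 FPKM in control hearts and 5.27 FPKM in mutants per the authors' deposited table (log2 -0.49, SE 0.301, q = 1.00). Eci1, an enoyl-CoA isomerase of fatty acid oxidation, read 54.2 and 41.5 FPKM (log2 -0.38, SE 0.298), and Tnfrsf12a, the receptor for TWEAK, read 26.7 and 20.7 FPKM (log2 -0.37, SE 1.029). All 3 lie more than 2 Mb from Nkx2-5.

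The 5 members past 0.5 were all higher, and they are named here after their values were seen. Mapk13, the p38 delta kinase, read 1.37 FPKM in control hearts and 2.38 FPKM in mutants per the authors' deposited table (log2 0.79, SE 0.528), and Tulp1, a tubby-like protein known from photoreceptors, read 1.40 and 2.45 FPKM (log2 0.80, SE 0.460). Scube3, a secreted epidermal growth factor domain protein, read 1.51 and 2.44 FPKM (log2 0.69, SE 0.453). Flywch2 and the small nucleolar RNA host gene Snhg9 had log2 fold changes of 0.57 (SE 0.477) and 0.87 (SE 1.351). Snhg9 shares its locus with Snora78, so reads may be split between them. None of the 5 had an unadjusted p under 0.05 (Cuffdiff), the lowest being 0.0802 for Tulp1.

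Of the 7 members with an unadjusted p under 0.05, 6 stood below 2 FPKM in both genotypes, and Nkx2-5 is the exception. Prss22, a serine protease of epithelia 2.84 Mb from Nkx2-5, was listed in the authors' deposited table at 0.0675 FPKM in control hearts and 0.407 FPKM in mutants (log2 2.59, SE 0.902, Cuffdiff unadjusted p = 0.00406, q = 0.351). With a pseudocount of 1 FPKM its log2 fold change was 0.40. Ptx4, a long pentraxin, was listed at 0.0675 and 0.307 FPKM (log2 2.19, or 0.29 with the pseudocount of 1 FPKM). Wfikkn1, a secreted protein that binds myostatin and GDF11, read 0.683 and 1.59 FPKM (log2 1.22, SE 0.512, or 0.62 with the pseudocount), 958 kb from Nkx2-5.

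Markers of foregut and pharyngeal epithelium were higher in the pooled mutant value. Of the 8 markers Epcam, Cdh1, Shh, Foxa2, Foxa1, Krt8, Pax1 and Nkx2-1 all 8 were higher and 6 were called in the authors' deposited table. Of all tested entries 54.6% were lower and 0.422% were called. Their summed level was 41.8 FPKM in control hearts and 103 FPKM in mutants, with none at 0. Krt8 made up most of both sums, and the other 7 markers summed to 2.16 and 11.99 FPKM. The part of this epithelial RNA in the values of Prss22, Ptx4, Wfikkn1 and Mapk13 was not tested.

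The 3 lower genes besides Nkx2-5 were also rare transcripts. Msln, the mesothelial surface protein mesothelin, was listed at 0.401 FPKM in control hearts and 0.143 FPKM in mutants per the authors' deposited table (log2 -1.48, SE 0.592, q = 0.746, or -0.29 with the pseudocount of 1 FPKM). Of the epicardial markers Wt1, Tbx18 and Upk3b 3 of 3 were lower, 0 were called, and their sum was 87.0 FPKM in control hearts and 80.7 FPKM in mutants. Dnah8, a heavy chain of axonemal dynein, was listed by the authors at 0.657 and 0.325 FPKM (log2 -1.02, SE 0.396, Cuffdiff unadjusted p = 0.0103, q = 0.674, or -0.32 with the pseudocount). Ubash3a, a signalling regulator of T cells, was listed by the authors at 0.988 and 0.419 FPKM (log2 -1.24, SE 0.563, Cuffdiff unadjusted p = 0.0279, q = 1.00, or -0.49 with the pseudocount). The 6 blood and macrophage markers summed to 703 FPKM in control hearts and 547 FPKM in mutants, with 4 lower and Lyz2 called. Of all tested entries 54.6% were lower and 0.422% were called. Whether mesothelial or blood cell content had a part in the values of Msln and Ubash3a was not tested.

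**Figure D3:**
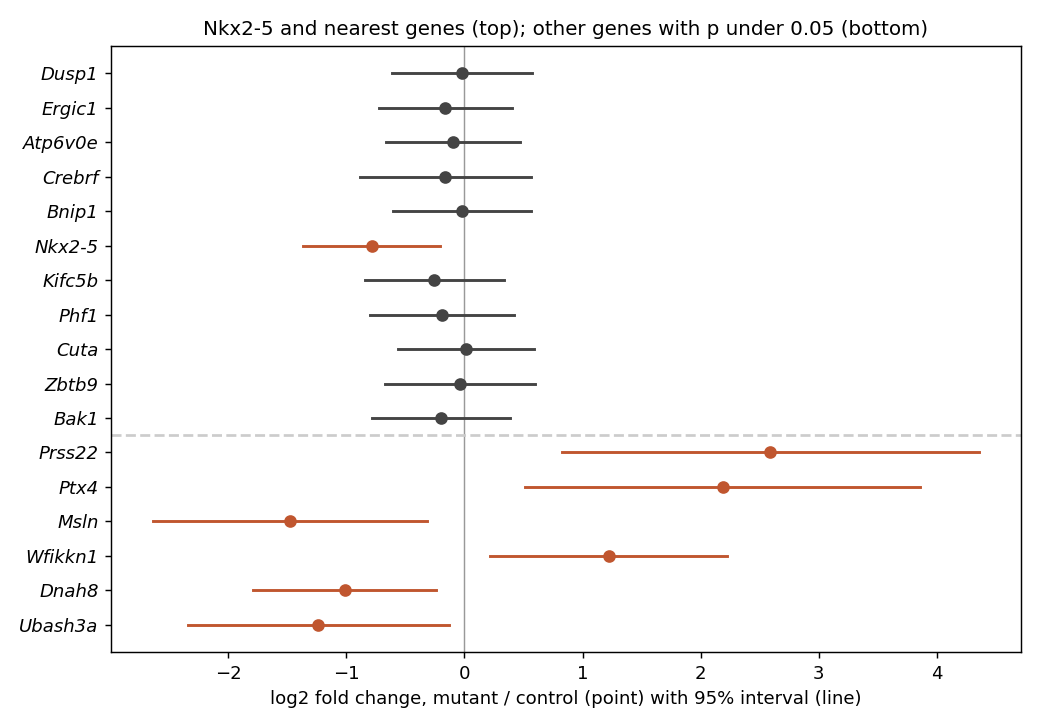
Log2 fold change (points) with 95% intervals (lines) for Nkx2-5 and its 5 nearest members on each side, above the dashed line, and for the 6 other members with an unadjusted p under 0.05 below it. The interval of Nkx2-5 ends at -0.21 and those of the 10 neighbours all include 0, while the genes in the lower part have intervals at least 1.55 log2 units wide.

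Genes at low level scattered most. The 38 members under 1 FPKM in both genotypes had a median absolute log2 fold change of 0.47, against 0.31 for all tested entries of that class. Members with their higher value from 5 to under 20 FPKM had 0.10 (all tested 0.08), and those from 20 to under 100 FPKM had 0.07 (all tested 0.07). Of the 26 members past 0.5 on the log2 scale, 18 were under 1 FPKM in both genotypes.

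By distance, the medians of the classes lay between -0.22 and 0.12, with no steady order away from Nkx2-5. On the low-coordinate side they were -0.06 within 0.5 Mb, -0.02 from 0.5 to 1 Mb, -0.03 from 1 to 2 Mb, 0.02 from 2 to 3 Mb, -0.02 from 3 to 4 Mb and -0.13 from 4 to 5 Mb. On the high-coordinate side the corresponding medians were -0.14, 0.12, 0.00, -0.05, -0.22 and -0.12. The class from 0.5 to 1 Mb at higher coordinates holds 6 genes, of which 5 were higher, including Hmga1, Nudt3 and Snrpc. The adjacent class within 0.5 Mb holds 9 genes, of which 7 were lower. Each of these differences was smaller than its SE.

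**Figure D4:**
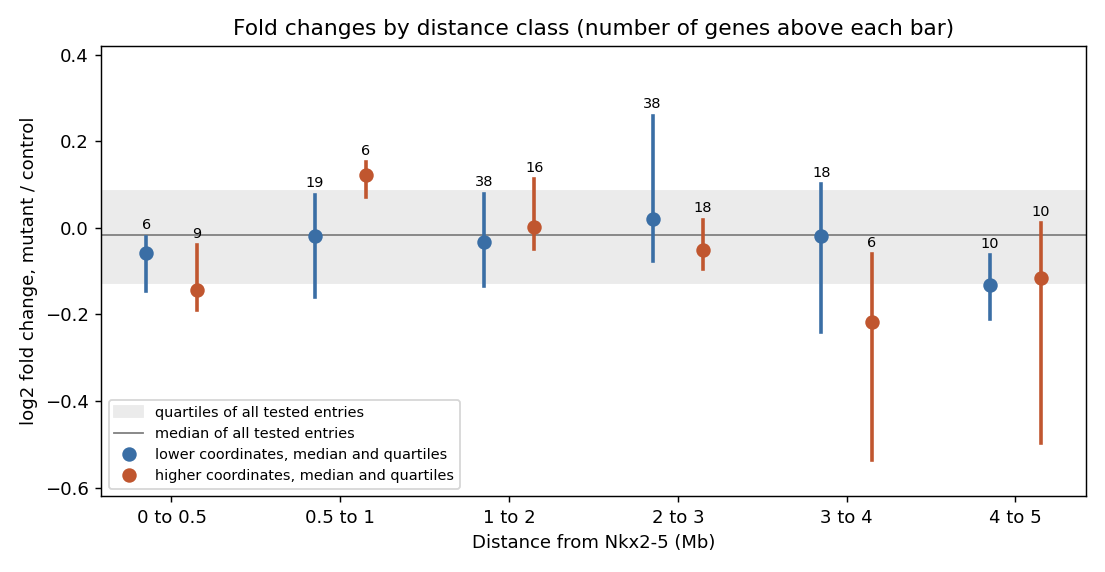
Median log2 fold change (points) and quartiles (vertical lines) of the members in 6 distance classes on each side of Nkx2-5, which is left out, with the number of genes above each line and the median and quartiles of all tested entries as a grey line and band. The medians run from -0.22 to 0.12, and the classes with the widest quartiles, at 3 to 5 Mb on the high-coordinate side, hold 6 and 10 genes.

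A cluster of zinc finger genes lies at the low-coordinate end of the segment. Many genes of this kind carry a KRAB domain and repress transposable elements. Of 15 members with a Zfp symbol 11 were lower and 4 higher, 0 had an unadjusted p under 0.05 (Cuffdiff), and the median log2 fold change was -0.07. For the 9 in the cluster between 4 and 5 Mb from Nkx2-5, 8 were lower with a median of -0.19. Of the 352 tested Zfp entries outside the window 44.0% were lower, with a median of 0.02, and the difference from these was not tested. Zfp758 in the cluster read 2.62 FPKM in control hearts and 2.13 FPKM in mutants per the authors' deposited table (log2 -0.30, SE 0.387), and Zfp944 read 3.18 and 3.26 FPKM (log2 0.03, SE 0.364). These 2 mark the ends of the cluster's range. Zfp40, 3.65 Mb away, read 2.17 and 1.69 FPKM (log2 -0.36, SE 0.376), and Zfp213 read 6.73 and 5.48 FPKM (log2 -0.30, SE 0.324). The size of each of these 4 log2 fold changes was below its SE, and closely related zinc finger genes may share reads in the authors' counting. Better expressed Zfp genes nearer to Nkx2-5 stood level: Zfp598, a ubiquitin ligase that senses collided ribosomes, read 19.97 and 19.61 FPKM, and Zfp523 read 15.1 and 15.1 FPKM.

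Among other transcription and chromatin factors of the segment, 9 of 18 were lower (all tested entries 54.6%) and 9 higher. Nkx2-5 was the only 1 with an unadjusted p under 0.05 (Cuffdiff, all tested entries 3.17%). Hmga1, an architectural protein of chromatin, had the highest control level of all members and read 329 FPKM in control hearts and 342 FPKM in mutants per the authors' deposited table (log2 0.06, SE 0.384). Tead3, a DNA-binding partner of the Hippo effector YAP, read 14.7 and 16.1 FPKM (log2 0.13).

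Of 27 signalling genes 16 were lower (all tested entries 54.6%) and 11 higher, with a median log2 fold change of -0.02. Wfikkn1 was the only 1 with an unadjusted p under 0.05 (Cuffdiff, all tested entries 3.17%). Past 0.5 on the log2 scale were 5 members, all higher: Wfikkn1, Mapk13 and Scube3, given above, and the rare transcripts Kremen2 (log2 0.96, SE 0.692), a receptor for the Wnt antagonist DKK1, and Rab26 (log2 0.90, SE 0.688), a small GTPase of secretory vesicles. Traf7, a ubiquitin ligase, read 39.8 FPKM in control hearts and 37.7 FPKM in mutants per the authors' deposited table (log2 -0.08). Mapk14, the p38 alpha kinase, read 28.1 and 30.2 FPKM (log2 0.11, SE 0.275), and the survival kinase Pim1 read 26.6 and 26.4 FPKM (log2 -0.01). The growth regulators Tsc2 and Mlst8, an inhibitor and a subunit of the mTOR pathway, had log2 fold changes of -0.04 and -0.10, and the Wnt scaffold Axin1 had -0.03.

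Genes of RNA splicing and export lay in a narrow range, with 9 members between -0.07 and 0.12 on the log2 scale. The SR protein Srsf3 read 151 FPKM in control hearts and 163 FPKM in mutants per the authors' deposited table (log2 0.11), Rnps1, a component of the exon junction complex, read 125 and 119 FPKM (log2 -0.07), and the U1 protein gene Snrpc read 86.8 and 94.6 FPKM (log2 0.12). Of these 9 genes, 6 were lower (all tested entries 54.6%) and 3 higher.

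In the list of mitochondrial and metabolic genes 13 of 20 members were lower (all tested entries 54.6%), with a median of -0.05. An unadjusted p under 0.05 (Cuffdiff) was found for 0 of the 20. Mtch1, a carrier-like protein of the outer mitochondrial membrane, read 181 FPKM in control hearts and 180 FPKM in mutants per the authors' deposited table. Eci1 had the lowest fold change of the list, as above. Glo1, which detoxifies methylglyoxal, read 82.2 and 68.7 FPKM (log2 -0.26, SE 0.329).

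Of 8 genes listed under lysosome and proton pump 7 were lower (all tested entries 54.6%), with a median of -0.12. An unadjusted p under 0.05 (Cuffdiff) was found for 0 of the 8. The list is not confined to lysosomal proteins, and Lmf1 and Gnptg are also counted in the secretory pathway list below. Atp6v0c, whose entry is joined to a pseudogene, read 227 FPKM in control hearts and 223 FPKM in mutants per the authors' deposited table. Slc37a1, a sugar phosphate transporter, had the lowest value at log2 -0.59 (SE 0.606) from a level under 1 FPKM. The lipase maturation factor Lmf1 read 14.4 and 13.1 FPKM (log2 -0.15).

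The cilium and axoneme list held 6 members, of which 5 were lower (all tested entries 54.6%), with a median of -0.13. Dnah8 was the 1 with an unadjusted p under 0.05 (Cuffdiff, all tested entries 3.17%). Ift140, a subunit of the retrograde transport complex of cilia, read 5.06 FPKM in control hearts and 4.56 FPKM in mutants per the authors' deposited table (log2 -0.15), and Pkd1, which encodes polycystin-1, read 2.64 and 2.43 FPKM (log2 -0.12, SE 0.581). The entry that joins Rhot2 and Wdr90 read 35.3 and 34.2 FPKM, and it is also counted as lower in the mitochondrial list.

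Cell cycle and DNA repair genes numbered 8, with 5 lower (all tested entries 54.6%), 3 higher and a median of -0.02. The double-strand break ubiquitin ligase Rnf8 read 21.3 FPKM in control hearts and 21.7 FPKM in mutants per the authors' deposited table. Pkmyt1, the inhibitory kinase of CDK1, read 14.6 and 12.9 FPKM (log2 -0.18), and the Fanconi anaemia gene Fance read 11.6 and 11.3 FPKM. Of 10 genes of the secretory pathway and protein quality control 6 were lower (all tested entries 54.6%). Their median was -0.04, with a range from -0.16 to 0.08. Ergic1 had the lowest value of these, and Zfand3 read 41.1 and 40.4 FPKM.

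The remaining highly expressed entries were Elob, Gm10012 and Snora64. Elob, the elongin B adaptor of ubiquitin ligases, read 305 FPKM in control hearts and 328 FPKM in mutants per the authors' deposited table (log2 0.11, SE 0.769). Its locus is shared with the splicing gene Srrm2. The predicted gene Gm10012 read 303 and 319 FPKM within a locus shared with Rab40c. Snora64, a small nucleolar RNA inside a ribosomal protein gene, read 167 and 191 FPKM with an SE of 20.7, so its value carries no information on a difference. In all, 37 members stood at 18 loci that they share with another member, where the coordinates are those of the joint locus and reads may be split between genes. The median SE was 0.489 for these and 0.334 for the other 158.

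Genes that work with or under Nkx2-5 elsewhere in the genome had a median absolute log2 fold change of 0.25, against 0.12 for the members of the segment. From a list of 34 reported cofactors and targets 32 were tested, and 24 were lower (all tested entries 54.6%) and 8 higher, with a median of -0.13. Shox2, a homeobox gene of pacemaker tissue, rose and was the only 1 of the 32 called in the authors' deposited table (all tested entries 0.422%). An unadjusted p under 0.05 (Cuffdiff) was found for 4 lower genes, Irx4, Cited1, Nppa and Hopx (all tested entries 1.18%), and for 3 higher genes, Shox2, Isl1 and Hcn4 (all tested entries 1.99%). Hopx, a homeodomain-only cofactor of cardiac muscle, read 130 FPKM in control hearts and 83.2 FPKM in mutants per the authors' deposited table (a log2 fold change of -0.64 with SE 0.299 and q = 1.00). Hcn4, the pacemaker channel, read 7.80 and 12.6 FPKM (log2 0.70, SE 0.305, q = 1.00). Among the transcription factors of the list, Gata4 read 80.3 and 74.4 FPKM (log2 -0.11), Tbx5 16.3 and 18.2 FPKM (log2 0.16) and Srf 37.5 and 32.0 FPKM (log2 -0.23). The list was chosen with earlier results of these data known, so its larger median and its counts may in part reflect that choice. The difference between this list and the neighbours was not tested.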

How the data were processed

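RNA-seq of 3 control and 3 mutant hearts was available as 1 deposited table of 23290 entries with 2 genotype columns. FPKM values were computed by the authors with Cuffdiff, per the file headers, and pool the hearts of a genotype. The submitters' processing notes name Cufflinks 2.1.1, TopHat2 2.0.8, SAMtools 0.1.19.0, Bowtie2 2.1.0.0, FastQC 0.10.1 and mm10. The authors deposited log2 fold changes, test statistics, p-values and q-values beside them. Settings for normalization and dispersion are not given in the sources used here, and FPKM keeps no depth.

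Two-sided normal tails of the statistic differed from the deposited p by at most 2.82e-06 over 15301 entries with a finite fold, so SE and 95% intervals were derived from it. RefSeq accessions gave symbols, 193 members through the RefSeq gene table (GRCm38.p6) and the rest through GENCODE. The 13 entries left out by symbol include 2 that join a Mir symbol to a gene, Ccnf and Stub1, neither with an unadjusted p under 0.05; the rule can also be read as keeping them. Distances run between locus bounds, with starts counted from 1.

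Members and lists were chosen with earlier results of these data known. Named were Nkx2-5, the 5 nearest members on each side, members with an unadjusted p under 0.05 (up to 12), the 8 with highest FPKM, per list the 3 with highest FPKM and the smallest p, and, among members with at least 1 FPKM in both genotypes, the 3 nearest in fold change to Nkx2-5. Values of 1 gene that this rule takes are not reported here. Other members are named as examples chosen after their values were seen. In 20 simulated tables of 15301 genes with 200 changed by a log2 of 2, 79.7% of changed genes were called. Noise was drawn from the derived SE of each gene, capped at a maximum, and tested with that same SE. The share therefore checks the calculation and says nothing on spread between hearts or on the power of the authors' test. Smaller changes, such as that of Nkx2-5, were not simulated, so this share does not say how often they would be called. Python 3.11.15, numpy 2.4.6, pandas 2.3.3, scipy 1.17.1 and matplotlib 3.10.9 were used.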

Additional observations from a re-analysis of the deposited data

How the results depend on the processing

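No paired analysis was possible because the deposited table holds no value per heart, and for the same reason no heart could be left out. No member was called at q under 0.1 or 0.01, or within 2 Mb. With the symbols left out by the membership rule put back, 2 genes were called, both higher: the embryonic claudins Cldn6, at 1.503 and 7.27 FPKM, and Cldn9, at 0.0224 and 0.466 FPKM (controls and mutants, the authors' deposited table). The count of higher members with an unadjusted p under 0.05 (3) became 1 with at least 1 FPKM in either genotype, 0 with at least 1 FPKM in both and 5 with the symbols put back. That of lower members (4) became 1 under either FPKM filter and 2 within 2 Mb. The median log2 fold change of the members (-0.026) was -0.023 with a pseudocount of 1 FPKM, -0.035 with at least 1 FPKM and -0.021 with at least 5 FPKM in either genotype. It was -0.0092 centred on the median of all tested entries, -0.020 within 2 Mb and -0.021 within 1 Mb. For 47 named genes, 133 of 141 values under pseudocounts or centring moved by less than the SE. Centring subtracted the same median (-0.0166) from every gene, so it could not move a named gene past its SE. The 8 that moved further were pseudocount values of Prss22, Ptx4, Wfikkn1, Msln, Dnah8 and Ubash3a. These are all the members with an unadjusted p under 0.05 (Cuffdiff) other than Nkx2-5. Centring turned the sign of 2 named genes whose log2 fold changes were at most 0.013 in size.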
